A study of Mus musculus with 3 samples.

Results

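Myeloid C-type lectin receptors are surface proteins with which neutrophils, monocytes, macrophages and dendritic cells recognise sugar and lipid structures on microbes and on damaged cells. The 7 receptor genes Clec4e, Clec4d, Clec4n, Clec5a, Clec4a2, Clec7a and Mrc1 were selected by symbol, and 6 of them had a row among the 32285 genes of the count matrices. Clec7a, which encodes Dectin-1, was not analysed here. Cells were gated by 7 lineage genes, none of them a receptor of the set.

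The receptors differ in how they signal. Clec4e (Mincle), Clec4d (MCL) and Clec4n (Dectin-2) pair with the Fc receptor gamma chain, encoded by Fcer1g, and Clec5a (MDL-1) pairs with the adaptor DAP12, encoded by Tyrobp. Both adaptors recruit the kinase Syk, which acts through Card9 on NF-kB and on cytokine and chemokine genes. Clec4a2 (DCIR1) carries an inhibitory motif that recruits phosphatases, and Mrc1 (the mannose receptor CD206) is an endocytic receptor commonly used as a marker of alternatively activated macrophages.

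In GRCm38 (GENCODE M21), 4 of the genes lie close together on chromosome 6, Clec4a2 from 123106428 to 123143999, Clec4n from 123229843 to 123247021 and Clec4d from 123262111 to 123275265 on the plus strand, and Clec4e from 123281789 to 123289870 on the minus strand. Clec5a lies farther away on chromosome 6, from 40574894 to 40585821 on the minus strand, and Mrc1 on chromosome 2, from 14229392 to 14332057 on the plus strand. Mir511 lies inside Mrc1 and Gm44132 overlaps Clec4a2, both on the same strand, so reads from the shared stretches could belong to either gene. None of the 451 stretches of 50 bases in the last 500 transcript bases of each receptor occurred in a transcript of another gene. The neighbours Clec4d and Clec4e had the most similar levels among the receptors when summed by gate and library, and Mrc1 had a different pattern. The 250 bases before the RefSeq start of these 3 genes are therefore shown 5′ to 3′ on the strand of the gene (RefSeq, GRCm38.p6: Clec4e, minus strand, chr6:123289872-123290121; Clec4d, plus strand, chr6:123261857-123262106; Mrc1, plus strand, chr2:14229164-14229413). Capitals mark matches to any of 6 motifs searched on both strands.
Clec4e: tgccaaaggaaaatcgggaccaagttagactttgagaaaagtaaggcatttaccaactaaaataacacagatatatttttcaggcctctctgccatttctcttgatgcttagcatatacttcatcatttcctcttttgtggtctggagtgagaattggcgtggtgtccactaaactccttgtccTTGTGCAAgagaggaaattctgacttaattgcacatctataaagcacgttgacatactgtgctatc
Clec4d: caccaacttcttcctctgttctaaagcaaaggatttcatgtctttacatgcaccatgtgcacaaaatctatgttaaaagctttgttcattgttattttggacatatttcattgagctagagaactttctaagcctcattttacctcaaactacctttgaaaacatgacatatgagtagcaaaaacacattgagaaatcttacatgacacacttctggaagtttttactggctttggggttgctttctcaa
Mrc1: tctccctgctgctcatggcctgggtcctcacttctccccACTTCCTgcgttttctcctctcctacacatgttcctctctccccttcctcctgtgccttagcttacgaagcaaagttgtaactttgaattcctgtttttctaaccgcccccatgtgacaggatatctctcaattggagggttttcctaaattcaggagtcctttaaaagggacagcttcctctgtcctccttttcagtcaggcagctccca
The capitals in Clec4e match the C/EBP motif TTGCNNAA on the opposite strand, in a stretch that starts 66 bases before the gene's start and which 9.56% of 32851 promoter windows of this length held. The capitals in Mrc1 match the ETS core AGGAAGT on the opposite strand, which 7.69% of the windows held. The Clec4d window held none of the motifs, which also were PU.1 (GAGGAAGT, which contains the ETS core; 2.44% of windows), AP-1 (TGANTCA; 6.75%), NF-kB (1.41%) and the interferon-stimulated response element (2.98%). These matches describe the letters of the windows only.

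The data were single-cell RNA sequencing counts of live CD45-positive cells sorted from primary tumors of 4T1-luc cells, a BALB/c mouse mammary adenocarcinoma line with a luciferase reporter. In each of 3 groups, 200000 cells had been implanted into the mammary fat pad of female BALB/c mice aged 6 to 8 weeks, and the tumors of 3 mice were pooled on day 14 into 1 library. The vehicle group (Veh) carried tumors wild type for p38α and received DPBS, and the p38i group carried the same tumors and received the p38 inhibitor LY2228820 at 30 mg/kg by daily gavage, both for 10 days from day 4. The p38KO group carried tumors of p38a-KO-H9, a single 4T1-luc clone in which p38α was inactivated by CRISPR-Cas9, with no treatment given in the labels, so that leukocytes of these mice keep p38α. Mapk14, which encodes p38α, stood at 33.7, 42.1 and 39.1 counts per 1000000 (CPM) in the sorted cells of the Veh, p38i and p38KO libraries, which checks nothing about the tumor cells. With 1 library per group there is no replicate check, no test was made, and library preparation cannot be told apart from the condition.

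The libraries held 21675352, 25996832 and 25997636 counts of unique molecular identifiers (UMIs, tags that mark each captured transcript once). A cell was kept if it had 1500 UMIs and 300 genes or more and mitochondrial genes held no more than 20% of its counts, which left 3820, 4793 and 3859 cells. Cells were gated on raw counts, with Csf3r and Cxcr2 for neutrophils, Ly6c2 and Fn1 for monocytes, C1qa for macrophages, Flt3 for dendritic cells (DC) and Cd3e for T cells, and cells with conflicting genes past set limits were left ungated. The neutrophil gate held 1626, 2000 and 1293 cells, the monocyte gate 377, 620 and 312, the macrophage gate 143, 160 and 447, the T gate 462, 573 and 393, and the DC gate 20, 39 and 40, while 29.2% to 35.6% of kept cells met no gate. The summed level of 7 neutrophil markers that no gate used was 150632 to 212100 CPM in the neutrophil gate. It was at most 8439 in the other gates and 24248 to 45667 in ungated cells. The sum of 7 macrophage markers was 18564 to 28229 CPM in the macrophage gate and 3191 to 4564 in the monocyte gate, which allowed fewer than 3 C1qa UMIs. It was at most 450 in the neutrophil, DC and T gates and 2665 to 10474 in ungated cells. A list of 7 DC markers separated the gates less, with 22956 to 27739 CPM in the DC gate and 17455 to 23180 in the macrophage gate, and the MHC class II genes Cd74 and H2-Ab1 made up most of it in both. The p38KO library stood apart in its mast cell markers (Cpa3, Kit and Mcpt4 together 45.3 CPM in its neutrophil gate against 6.22 and 8.65) and, in its monocyte gate, in tumor or stroma markers (Epcam, Krt8, Krt18 and Col1a1 together 162 CPM against 6.45 and 4.18). Libraries shared 5 to 9 cell barcodes in each pair.

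In CPM, Clec4e and Clec4d were highest in neutrophils, Clec5a in monocytes, and Clec4a2, Mrc1 and Clec4n in macrophages. Clec4n was nearly as high in monocytes. The order of the neutrophil, monocyte and macrophage levels was the same in the 3 libraries for each receptor, although the intervals of some neighbours overlapped for Clec4n and Clec5a. T cells, which are not known to use these receptors, gave the background, at most 12.7 CPM for any receptor. Values are CPM, the UMIs of the receptor per 1000000 UMIs summed over the cells of a gate, with exact 95% Poisson intervals. Like all intervals given here, these cover counting error only. CPM is relative to the RNA captured, and monocytes and macrophages had more UMIs per cell than neutrophils. Per cell, Clec5a stood at 2.10, 2.05 and 1.87 UMIs in monocytes and at 2.15, 2.14 and 1.68 in macrophages of Veh, p38i and p38KO.

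**Figure D1:**
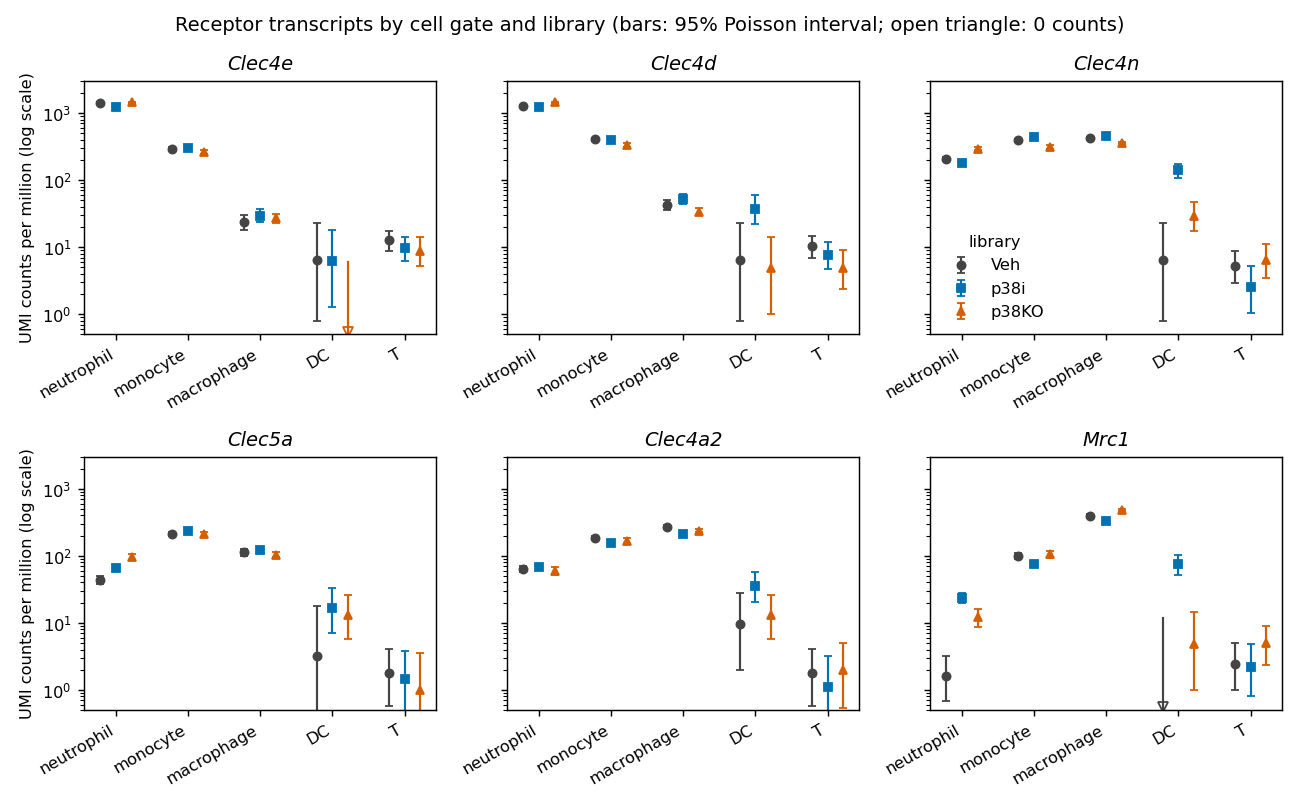
Level of each receptor (CPM, log scale) in 5 cell gates of the Veh, p38i and p38KO libraries; points are sums over the cells of a gate and bars are 95% Poisson intervals. Clec4e and Clec4d step down from neutrophils to monocytes to macrophages, Mrc1 runs the other way, and the T gate lies at or below 12.7 CPM throughout.

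Clec4e, the Mincle receptor for mycobacterial glycolipids and for material of dead cells, stood at 1421 CPM in neutrophils of the Veh library (interval 1388 to 1454), 1242 in p38i (1214 to 1270) and 1437 in p38KO (1396 to 1478). In monocytes it stood at 294, 296 and 264 CPM and in macrophages at 23.7, 29.5 and 26.9 CPM. The neutrophil level was 4.83, 4.20 and 5.45 times the monocyte level, with intervals apart in every library. The monocyte level was 9.80 to 12.4 times the macrophage level, again with intervals apart. Per cell, Clec4e stood at 4.35, 3.73 and 3.70 UMIs in neutrophils and at 2.90, 2.63 and 2.36 in monocytes. In macrophages the 3 cells with the most Clec4e UMIs held 30.5% to 36.6% of them. The neutrophil gate carried 63.2%, 61.8% and 55.3% of all Clec4e UMIs of the kept cells, and ungated cells 26.1%, 23.9% and 33.7%. Ungated cells also held neutrophil markers, which summed to 43422, 45667 and 24248 CPM, so these shares do not cover all neutrophils.

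Clec4d, which forms a complex with Mincle, followed the same order. Its level was 1293, 1231 and 1437 CPM in neutrophils, 406, 398 and 336 CPM in monocytes, and 42.6, 52.5 and 33.9 CPM in macrophages of the Veh, p38i and p38KO libraries. The T gate held 10.2, 7.75 and 4.93 CPM. The step from neutrophils to monocytes was 3.18, 3.10 and 4.28 times in CPM, smaller than that of Clec4e in each library. Per cell the levels were closer, at 3.96, 3.70 and 3.70 UMIs in neutrophils and 4.01, 3.53 and 3.01 in monocytes.

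Clec4n, the Dectin-2 receptor for mannose-rich fungal surfaces, was spread over all 3 myeloid gates. It stood at 421, 447 and 359 CPM in macrophages, 391, 433 and 310 CPM in monocytes, and 207, 178 and 295 CPM in neutrophils. Macrophages and monocytes overlapped in their intervals in the Veh and p38i libraries, whereas in p38KO they were apart and monocytes overlapped with neutrophils (310, interval 290 to 332, against 295, interval 277 to 314). In the T gate of the Veh library, 3 cells held all 15 Clec4n UMIs.

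Clec5a, a DAP12-coupled receptor of inflammatory myeloid cells, was highest in monocytes, at 213, 231 and 209 CPM, followed by macrophages at 112, 123 and 104 CPM. Neutrophils held 43.1 CPM in Veh (interval 37.6 to 49.3), 65.2 in p38i (58.9 to 71.99) and 96.4 in p38KO (86.1 to 108). The 3 neutrophil intervals did not overlap, and in p38KO the neutrophil level in CPM reached an interval shared with macrophages. Per cell, p38KO neutrophils held 0.248 Clec5a UMIs and p38KO macrophages 1.68. T cells held 0.985 to 1.76 CPM.

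Clec4a2, the inhibitory receptor of the set, was highest in macrophages (271, 208 and 238 CPM), then monocytes (185, 154 and 168 CPM) and then neutrophils (63.8, 69.0 and 59.8 CPM). Mrc1 stood at 390 CPM in macrophages of Veh, 335 in p38i and 484 in p38KO, and at 99.7, 75.8 and 105 CPM in monocytes. In neutrophils Mrc1 had 8 UMIs in Veh, 140 in p38i and 40 in p38KO. Of the 140 UMIs in p38i, 126 came from 3 cells with 81, 35 and 10 UMIs. Among their 5870, 15318 and 11836 total UMIs, these cells held 3, 2 and 843 of the neutrophil marker S100a9. The S100a9 level of the p38i neutrophil gate was 117662 CPM. The second cell held 144 and the third 36 UMIs of the MHC class II gene H2-Ab1.

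Detection per cell was compared at equal depth. Cells were thinned to 1500 UMIs each, the depth that every kept cell had, since the median depth was 2174 to 2516 UMIs in neutrophils, 8010 to 9179 in monocytes, 13240 to 17241 in macrophages and 3848 to 4996 in T cells. A Clec4e UMI was then seen in 75.3%, 72.8% and 71.0% of neutrophils, in 27.9%, 30.0% and 24.04% of monocytes and in 1.79% to 4.90% of macrophages, beside 1.05% to 1.73% of T cells. The Clec4e shares of macrophages and T cells overlapped in their intervals in each library. With only 7, 5 and 8 positive macrophages after thinning, these shares cannot tell macrophages from background. The macrophage level itself was 1.87, 3.08 and 3.03 times the T level, with intervals apart in each library. Before thinning, the Clec4e shares were 85.4%, 84.8% and 81.4% of neutrophils.

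Clec4d was detected in 79.9%, 80.1% and 82.1% of thinned neutrophils, and Mrc1 in 35.0%, 35.6% and 45.9% of thinned macrophages. The Mrc1 share of neutrophils was 0.185%, 0.350% and 1.78%, beside 0.216%, 0.349% and 1.53% of T cells in the same libraries. These Mrc1 shares of neutrophils and T cells overlapped in each library, so the neutrophil values are read as background. The Clec5a share of neutrophils was 5.54% in Veh (interval 4.47% to 6.76%), 7.65% in p38i (6.52% to 8.90%) and 11.3% in p38KO (9.62% to 13.1%), against at most 0.509% of T cells. In p38KO this neutrophil share was level at equal depth with that of macrophages (11.2%, interval 8.42% to 14.5%). Before thinning, Clec5a was seen in 15.7% of p38KO neutrophils and in 55.9% of the deeper p38KO macrophages. Clec4n was detected in 21.7%, 16.3% and 25.4% of neutrophils, 31.8%, 35.3% and 22.1% of monocytes and 49.0%, 46.9% and 35.8% of macrophages. In p38KO the neutrophil and monocyte shares overlapped in their intervals, and in Veh the macrophage share was above the monocyte share with intervals apart, whereas their levels overlapped.

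**Figure D2:**
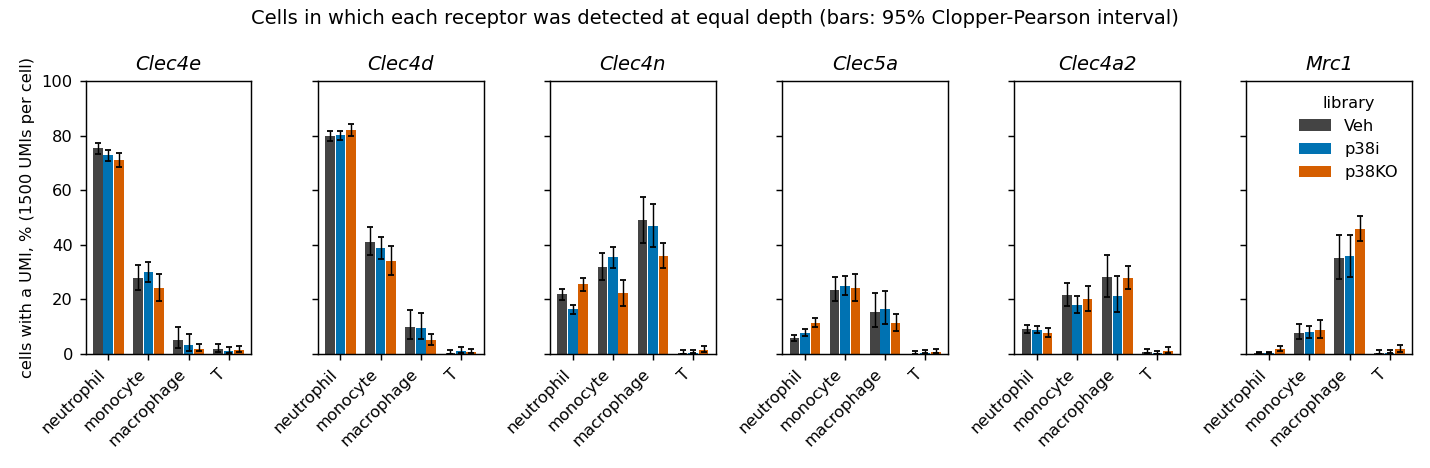
Share of cells (percent, axis from 0 to 100) with at least 1 UMI of each receptor after every cell was thinned to 1500 UMIs, in the neutrophil, monocyte, macrophage and T gates of each library; error bars are 95% Clopper-Pearson intervals. Clec4e and Clec4d are seen in over 70% of neutrophils in each library and Clec5a is seen in 5.54%, 7.65% and 11.3% of them.

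Most neutrophils had UMIs of 2 or more of these receptors. After thinning, 49.6%, 49.9% and 46.8% of neutrophils had UMIs of exactly 2 receptors and 22.0%, 19.3% and 25.5% of 3 or more, while 4.80%, 4.85% and 4.33% had none. Clec4d was found in 81.9% of Clec4e-positive and 73.8% of Clec4e-negative neutrophils in Veh, in 82.2% and 74.4% in p38i, and in 84.3% and 76.8% in p38KO. Clec4n was found in 35.6% of Clec5a-positive against 20.9% of Clec5a-negative neutrophils in Veh, in 24.8% against 15.5% in p38i and in 46.6% against 22.8% in p38KO. The intervals of both pairs were apart in all 3 libraries (Clec4n with Clec5a in p38i, 18.2% to 32.5% against 13.9% to 17.3%). In CPM, Clec4n and Clec5a were lower in neutrophils than in monocytes and macrophages of each library, although some intervals overlapped in p38KO. No doublet caller was run, and the part of other cells' RNA in this pair was not tested. Among monocytes, Clec4n was found in 40.9% of Clec5a-positive against 29.1% of Clec5a-negative cells in Veh, in 51.3% against 30.0% in p38i and in 33.3% against 18.6% in p38KO, with intervals apart in p38i and overlapping in Veh and p38KO. In macrophages, Clec4n detection was 48.0% with Mrc1 and 49.5% without it in Veh, and the intervals of the pair also overlapped in p38i and p38KO.

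The comparison of p38i with Veh addressed systemic p38 inhibition and that of p38KO with Veh the loss of p38α in the tumor cells. In the latter, the use of a single clone and the lack of a labelled treatment cannot be told apart from that loss. Both comparisons share the Veh library. A gene was called past the fold when its log2 ratio to Veh was 0.5 or more either way with at least 50 counts over both libraries, and each ratio carries an exact conditional binomial 95% interval. In p38i neutrophils, 2 of 6 receptors with 50 counts were past the fold (Clec5a and Mrc1, both higher), beside 16.7% of 6959 genes. There, 3 cells held 90.0% of the Mrc1 UMIs. In p38KO neutrophils, 2 of 5 were past the fold (Clec5a and Clec4n, both higher), beside 16.4% of 6290 genes. In the monocyte gate 0 of 6 receptors were past the fold in p38i and 0 of 6 in p38KO, beside 9.98% and 13.6% of all genes, and in the macrophage gate again 0 of 6 in each, beside 10.2% and 15.9%. The median log2 ratio of the receptors in neutrophils was 0.02 in p38i and 0.15 in p38KO, against 0.10 and 0.09 over all genes.

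**Figure D3:**
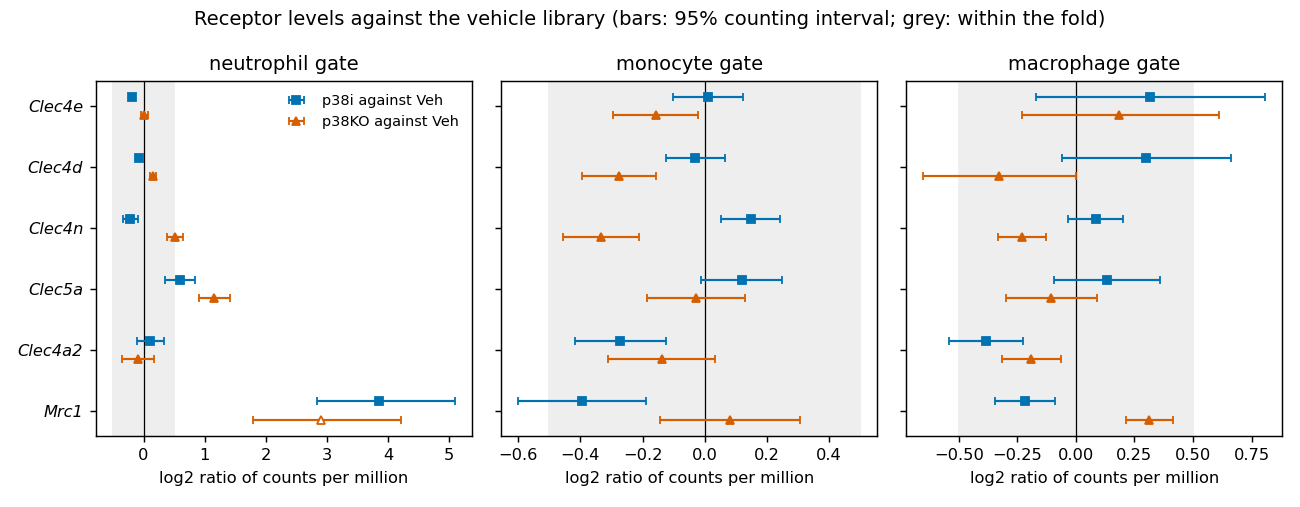
Log2 ratio of each receptor's level to the Veh library in the neutrophil, monocyte and macrophage gates, for p38i and p38KO; bars are 95% counting intervals, the grey band spans -0.5 to 0.5 and an open symbol has under 50 counts. The x axes differ between panels; outside the band lie Clec5a and Mrc1 in neutrophils of both groups and, just outside at 0.51, Clec4n in neutrophils of p38KO.

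Clec5a had the clearest difference between libraries. Its neutrophil counts were 215 UMIs in Veh, 392 in p38i and 321 in p38KO. The log2 ratio to Veh was 0.60 in p38i (interval 0.35 to 0.84) and 1.16 in p38KO (0.91 to 1.42), a 2.23-fold level in the latter. Over 10 other ways of processing the cells, the p38KO ratio stayed between 0.97 and 1.26, while the p38i ratio ranged from 0.45 to 0.81 and was under the fold in 3 of them, among them median-ratio scaling (0.497). In monocytes the Clec5a ratios were 0.12 and -0.03, and in macrophages 0.13 and -0.11, with intervals that contain 0.

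Clec4n in neutrophils was 0.51 higher in p38KO on the log2 scale (interval 0.39 to 0.64) and 0.22 lower in p38i (log2 ratio -0.22, interval -0.34 to -0.09). The p38KO value lay at the limit of 0.5 and was past it in 3 of 10 alternatives (range 0.39 to 0.75), and the p38i value turned to 0.16 among cells with at least 3000 UMIs. Clec4n was lower in p38KO in monocytes (-0.33, interval -0.46 to -0.21) and in macrophages (-0.23, interval -0.33 to -0.13). In the p38KO monocytes 3 cells held 19.2% of the Clec4n UMIs. The monocyte ratio was -0.29 without the cells that had 2 or more UMIs of tumor or stroma markers.

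Beside these neutrophil ratios, markers of other cells moved as well. The 7 macrophage markers summed to 268, 373 and 450 CPM in the neutrophil gate of Veh, p38i and p38KO, with all 7 detected in each and Apoe as the main part (225, 336 and 339 CPM), and the 7 monocyte markers to 865, 843 and 868 CPM. C1qb stood at 15.7, 7.82 and 38.7 CPM there. The 4 NK cell markers Ncr1, Nkg7, Klrb1c and Gzma summed to 6.82, 60.4 and 49.5 CPM, all 4 detected in each library, and the median mitochondrial share of neutrophils was 0.322%, 0.389% and 0.541%. The part of other cells' RNA or of RNA quality in the Clec5a and Clec4n ratios was not tested.

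Clec4e and Clec4d differed little between libraries in neutrophils. The Clec4e log2 ratio was -0.19 in p38i (interval -0.24 to -0.15) and 0.02 in p38KO (-0.04 to 0.07), and that of Clec4d was -0.07 (-0.12 to -0.02) and 0.15 (0.10 to 0.21). In monocytes Clec4e was at 0.01 in p38i and -0.16 in p38KO (interval -0.29 to -0.02). Clec4d was at -0.03 and -0.27 there (interval in p38KO -0.39 to -0.16). Over the 10 alternatives the p38KO monocyte value of Clec4e ranged from -0.30 to 0.17, and 3 cells held 14.9% of its UMIs. The 7 neutrophil markers summed to 6409, 8439 and 3284 CPM in the monocyte gate of Veh, p38i and p38KO. The part of neutrophil RNA in these monocyte ratios was not tested. All 4 intervals of Clec4e and Clec4d in macrophages contained 0, with 65 to 245 UMIs per library behind them.

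Clec4a2 and Mrc1 were lower in p38i in monocytes and macrophages without passing the fold. Clec4a2 had log2 ratios of -0.27 (interval -0.42 to -0.12) in monocytes and -0.38 (-0.54 to -0.22) in macrophages. Mrc1 had -0.40 (-0.60 to -0.19) and -0.22 (-0.34 to -0.09). In p38KO Mrc1 was 0.31 in macrophages (0.21 to 0.41) and 0.08 in monocytes (-0.14 to 0.31), and Clec4a2 was -0.19 and -0.14. The Mrc1 ratio of 3.86 in p38i neutrophils dropped to 1.22 on fewer than 50 counts without the 3 richest cells of each library, and the 40 UMIs of p38KO neutrophils lay in 39 cells.

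The DC gate was too small for more than counts. In its 20, 39 and 40 cells, Clec4n had 2, 67 and 18 UMIs, of which 64 of the 67 in p38i lay in 3 cells. Mrc1 had 0, 36 and 3 UMIs and the other receptors at most 18 in any library. Only Clec4n in p38i had 50 counts, and it was past the fold beside 25.3% of 2144 genes. In p38KO 0 receptors had 50 counts, where 23.3% of 2489 genes were past the fold.

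The adaptors of these receptors differed little between libraries. Of 24 signalling genes, 22 had 50 counts in neutrophils, and 0 were past the fold in p38i, where 16.7% of all genes were, and 3 in p38KO, all higher, where 11.9% of all genes were higher. Fcer1g stood at 4049, 3685 and 4435 CPM and Tyrobp at 3453, 3215 and 3755 CPM in neutrophils of Veh, p38i and p38KO. Their log2 ratios lay between -0.14 and 0.13 in neutrophils, monocytes and macrophages of both groups. Syk, the kinase recruited by both adaptors, was 0.01 in p38i neutrophils and 0.32 in p38KO neutrophils (interval 0.20 to 0.43), and Card9 had only 43 to 83 UMIs per library there, with intervals that contain 0. The largest differences among those with at least 100 counts in p38KO neutrophils were those of Vav1, an exchange factor downstream of Syk (80.9 to 122 CPM, log2 ratio 0.60), and Rel, an NF-kB subunit (73.0 to 110 CPM, 0.59). In macrophages of p38i, Malt1, the paracaspase that works with Card9 and Bcl10, stood at 117 CPM against 71.1 in Veh (log2 ratio 0.72, interval 0.46 to 0.99). There, 1 of 24 signalling genes was higher and 0 lower, beside 4.25% and 5.93% of all genes.

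Among listed genes that these pathways can induce, most of those past the fold were lower in p38i and higher in p38KO neutrophils. The list was drawn from general knowledge, but with earlier results of these data known. It includes Cxcl2, Ptgs2 and Cebpb, which the authors had reported as reduced by p38 blockade in monocytes or granulocytes of these tumors. The counts of output genes beside all genes, in each gate, are therefore not independent of those results. Whether the receptors had a part in these differences was not tested. Of 24 output genes, 18 had 50 counts in p38i neutrophils, with 6 lower and 1 higher beyond the fold, beside 3.97% and 12.7% of all genes, and in p38KO neutrophils 6 of 17 were higher and 1 lower, beside 11.9% and 4.44%. Cxcl2, a neutrophil-attracting chemokine, stood at 10784 CPM in Veh neutrophils, 6073 in p38i and 9115 in p38KO (log2 ratio in p38i -0.83, interval -0.85 to -0.81). Il1a stood at 42.3, 40.4 and 124 CPM and Tnf at 20.5, 22.8 and 54.4 CPM, with log2 ratios in p38KO of 1.55 and 1.41. Egr3 was higher in p38i (10.8 to 21.1 CPM, 0.96). Cebpb, a transcription factor of the granulocyte lineage and of suppressive myeloid cells, was at 6784, 4931 and 5440 CPM in neutrophils (-0.46 and -0.32).

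In monocytes the outputs leaned lower in both groups, with 6 of 17 lower in p38i and 5 of 18 in p38KO, beside 3.9% and 3.68% of all genes, and with 0 and 2 higher, beside 6.08% and 9.87%. Ptgs2, which encodes cyclooxygenase 2, stood at 219 CPM in Veh, 78.3 in p38i and 127 in p38KO (log2 ratios -1.48 and -0.78), and Cxcl2 at 1101, 519 and 614 CPM (-1.09 and -0.84). In macrophages, 6 of 15 outputs were lower and 3 higher in p38i, and 4 of 16 were lower and 2 higher in p38KO, where 5.93%, 4.25%, 4.23% and 11.7% of all genes were. Cxcl2 in p38KO macrophages was at 51.0 CPM against 147 in Veh (-1.53), Tnf at 14.96 against 4.37 on 108 and 12 UMIs (1.77, interval 0.91 to 2.77), and Cxcl3 in p38i at 123 against 50.7 (1.28). Cebpb was at 768, 625 and 512 CPM in macrophages (-0.30 and -0.58).

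Other C-type lectins were compared by the same rule. In neutrophils 11 of 24 had 50 counts, of which 2 were higher and 1 lower in p38i and 3 were higher and 1 lower in p38KO, beside 12.7% and 3.97% of all genes in p38i and 11.9% and 4.44% in p38KO. Olr1, the scavenger receptor LOX-1, stood at 9.03 CPM in Veh, 19.0 in p38i and 41.1 in p38KO neutrophils, with log2 ratios of 1.07 (interval 0.56 to 1.60) and 2.19 (1.69 to 2.71). Its order of libraries was that of Clec5a. Clec2d was lower in p38i neutrophils (211 to 124 CPM, -0.76). In macrophages 0 of 10 were higher and 2 lower in p38i, beside 4.25% and 5.93% of all genes. In p38KO macrophages 1 of 11 was higher and 4 lower, beside 11.7% and 4.23%. Clec12a, an inhibitory receptor, was lower there (75.4 to 26.7 CPM, log2 ratio -1.50, interval -1.79 to -1.21). In monocytes 0 of 11 were higher and 1 lower in p38i, beside 6.08% and 3.9%, and 2 higher and 1 lower in p38KO, beside 9.87% and 3.68%. Colec12 was at 106 CPM in Veh monocytes and 71.3 in p38i monocytes (-0.57).

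The receptors also varied with the state of a cell within its gate. States were set by genes outside the set, on thinned counts. Neutrophils with the chemokine gene Ccl3 and no Cxcr2 (224, 193 and 144 cells) were set against those with Cxcr2 and no Ccl3 (900, 1106 and 732 cells), and both genes are themselves part of the myeloid response or of the gate. Clec4d was higher in the Ccl3 cells of each library, at 1571 against 1206 CPM in Veh, 1624 against 1164 in p38i and 1803 against 1293 in p38KO. Clec4n was likewise higher in them, by 0.44, 0.51 and 0.54 on the log2 scale with all 3 intervals above 0.

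Clec4e was higher in the Ccl3 cells of Veh, at 1929 against 1371 CPM (log2 ratio 0.49, interval 0.40 to 0.58). The same ratio was 0.02 in p38i (1287 against 1265 CPM, interval -0.09 to 0.14) and 0.20 in p38KO (0.07 to 0.33). The Clec4e log2 ratio of p38i to Veh was -0.58 (interval -0.72 to -0.45) among Ccl3 cells and -0.12 (-0.18 to -0.05) among Cxcr2 cells. The Ccl3 cells of Veh held 1277 Clec4e UMIs. In the whole Veh neutrophil gate 1 cell held 123 Clec4e UMIs and the 3 richest cells 196, and the state of these cells was not examined. Clec4a2 was lower in Ccl3 cells, with 31.7 CPM against 73.6 in Cxcr2 cells of Veh, on 21 and 195 UMIs. The log2 ratios were -1.21, -0.99 and -0.33, the last with an interval that contains 0.

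The higher Clec5a level in p38KO neutrophils was present in every state examined. Its log2 ratio to Veh was 1.34 in Ccl3 cells, on 31 UMIs in Veh, and 1.08 in Cxcr2 cells. It was 1.37 in cells with at least 2 UMIs of the interferon-response genes Rsad2, Ifit1 and Ifit3, and 1.00 in cells below that number, all with intervals above 0. The Clec4n ratios in p38KO were 0.51, 0.41, 0.65 and 0.41 in the same order. Both ways of setting states drew on the same neutrophils, so these ratios share cells and are not independent. Interferon-response cells made up 23.4% of neutrophils in Veh, 10.9% in p38i and 33.7% in p38KO, and Clec4d was higher in them than in the other neutrophils by 0.29, 0.23 and 0.29 on the log2 scale.

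**Figure D4:**
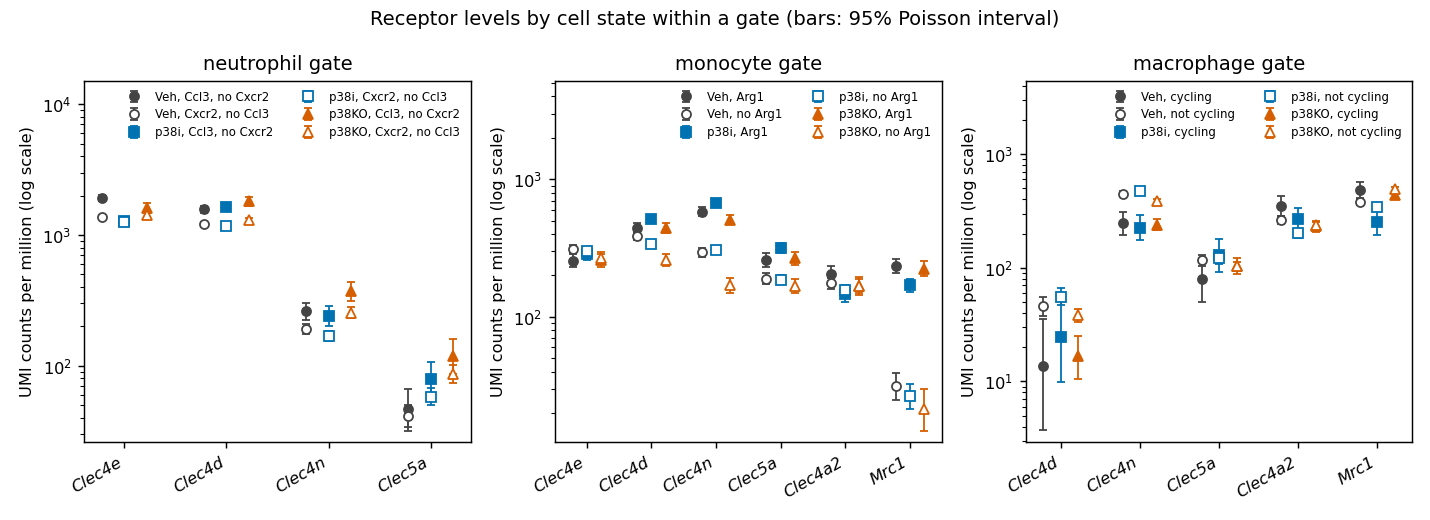
Receptor levels (CPM, log scale) by cell state within the neutrophil, monocyte and macrophage gates; filled symbols are cells with Ccl3 and no Cxcr2, with Arg1, or with Mki67 or Top2a (cycling), open symbols the compared state, and bars 95% Poisson intervals. Clec4e of Veh neutrophils is at 1929 CPM in the Ccl3 state, and Mrc1 of monocytes lies at 170 to 236 CPM with Arg1 and at 21.4 to 31.5 CPM without it.

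Monocytes with the arginase gene Arg1, an enzyme of suppressive myeloid cells, made up 33.7%, 34.5% and 41.0% of the monocyte gate at median depths of 7733 to 8893 UMIs, against 8087 to 9350 in the rest. Mrc1 stood at 236, 170 and 224 CPM in them and at 31.5, 26.6 and 21.4 CPM in monocytes without Arg1, although 3 cells held 19.9% to 29.6% of the gate's Mrc1 UMIs. Clec4n stood at 582, 672 and 510 CPM with Arg1 and at 295, 308 and 169 CPM without it. Clec5a was higher with Arg1 by 0.45, 0.76 and 0.67 on the log2 scale, and Clec4d by 0.19, 0.61 and 0.78. Clec4e was not, with -0.29 in Veh (interval -0.48 to -0.10), -0.08 in p38i and -0.06 in p38KO. Macrophage markers were not compared between monocytes with and without Arg1.

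Clec4n of p38KO monocytes was lower than in Veh by more in cells without Arg1. There the log2 ratio to Veh was -0.80 (interval -1.01 to -0.60), and in Arg1 cells it was -0.19 (-0.35 to -0.03). However, 3 p38KO monocytes held 19.2% of the gate's Clec4n UMIs, and the state of these cells was not examined. Without the 3 richest cells of each library the ratio of the whole gate was -0.53. The ratios by state were not computed without them. The Clec4d ratios were -0.58 without Arg1 (interval -0.75 to -0.42) and 0.01 with it. In p38i the Arg1 cells had Clec4a2 at -0.50 (interval -0.75 to -0.25) and Clec4n at 0.21 (0.07 to 0.34). The difference between states was not tested in any of these comparisons.

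Cycling macrophages, with Mki67 or Top2a, were few in Veh and p38i (12 cells each) and numbered 60 in p38KO. In CPM, Clec4n was lower in them in each library, at 247, 226 and 240 against 442, 472 and 387 in the other macrophages. Cycling cells were deeper, with medians of 26628, 20946 and 17576 UMIs against 17141, 16579 and 12314, which lowers CPM at equal transcripts per cell. In p38KO, the 60 cycling cells held 332 Clec4n UMIs and the 387 other cells 2260. Mrc1 in macrophages that were not cycling stood at 496 CPM in p38KO against 378 in Veh (log2 ratio 0.39, interval 0.28 to 0.50). Among cycling cells it stood at 433 against 483 CPM (-0.16, interval -0.42 to 0.12), the latter on 141 UMIs of 12 cells, and the difference between the states was not tested.

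Summed over all kept cells, the receptors differed between libraries in another way than within gates. Clec4e stood at 539, 499 and 355 CPM, Clec4d at 537, 546 and 373 CPM, and Mrc1 at 84.3, 78.4 and 215 CPM. The p38KO log2 ratios were -0.60 for Clec4e, -0.53 for Clec4d and 1.35 for Mrc1. Neutrophils gave 23.96%, 24.8% and 13.7% of the kept UMIs and macrophages 13.2%, 11.5% and 29.6%. With the Veh level of each gate held and only the gates' UMI shares set to those of p38KO, the ratios came to -0.44 for Clec4e, -0.40 for Clec4d and 0.77 for Mrc1. With the shares held at those of Veh and only the levels set to those of p38KO, they came to -0.11, -0.05 and 0.69. Ungated cells enter this sum as a group of their own, and their Mrc1 level was 48.2, 54.6 and 167 CPM beside summed macrophage markers of 2665, 3341 and 10474 CPM.

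**Figure D5:**
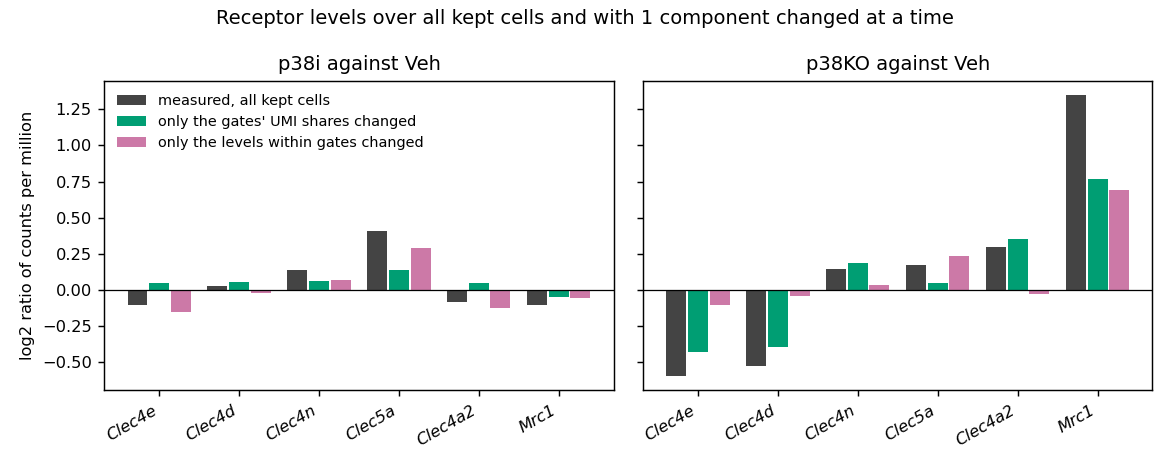
Log2 ratio to Veh of each receptor over all kept cells (dark), with only the gates' shares of UMIs changed (green) and with only the levels within gates changed (pink), for p38i and p38KO. In p38KO the measured ratios of Clec4e (-0.60), Clec4d (-0.53) and Mrc1 (1.35) lie beside share-only ratios of -0.44, -0.40 and 0.77.

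Clec5a over all kept cells was at 77.3, 103 and 87.1 CPM. Its log2 ratio in p38i was 0.41 (interval 0.32 to 0.50), of which the shares alone gave 0.14 and the levels alone 0.29. Clec4a2 was at 106, 99.8 and 130 CPM, and in p38KO the shares alone gave 0.35 for a measured ratio of 0.30. Clec4n was at 232, 255 and 256 CPM.

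Across the 15 sums of 5 gates in 3 libraries, the pattern of Clec4e was closest to those of Sgms2, Hp and H3f3b (Pearson r of log2(CPM + 10) 0.990, 0.988 and 0.987, among 10726 genes), and that of Clec4d to Tiparp, Iqgap1 and Cdc42ep2. Clec4e and Clec4d had r = 0.983 with each other, and Clec4e had r = 0.578 with Clec4n and -0.003 with Mrc1. Clec4n was closest to Sirpa, Tcn2 and 3110082I17Rik (0.978, 0.976 and 0.973), Clec5a to Tgm2, Tgfbi and Gm21188, and Clec4a2 to Csf1r, Anxa3 and Clec4a3. Mrc1 was closest to Neurl2, Lrmda and Man1c1. These values describe 15 sums that share libraries, so they carry no test, and they mostly follow the difference between cell types.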

How the data were processed

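Single-cell 3′ RNA sequencing of 3 libraries was analysed. Reads had been aligned by the authors in Cell Ranger (6.0.0 in the file headers; the submitters' processing notes name mm10, R 4.2.1 and Seurat 5) and were deposited as raw UMI counts of each gene in each barcode, not normalized. The members, gene lists and gates were chosen with earlier results of these data known. Cells were kept with at least 1500 UMIs, 300 genes and at most 20% mitochondrial counts. Gates on raw counts were exclusive. Neutrophils needed 2 UMIs of Csf3r or Cxcr2, monocytes 3 of Ly6c2 or Fn1 with Fn1 detected, and macrophages 3 of C1qa. DC needed 1 of Flt3 and T cells 1 of Cd3e. Each gate had upper limits on some genes of the other gates, and the macrophage gate had none on Ly6c2, Fn1 or Flt3. No doublet caller was run. Cells past these limits stayed ungated, which removes part of the doublets. Counts were summed per gate and library and given as CPM with 95% Poisson intervals, ratios with exact conditional binomial intervals, shares with Clopper-Pearson intervals after thinning to 1500 UMIs (random seed 1), and 0.5 stood in for a count of 0 in a ratio. Depth sets the precision: gates summed 310969 to 7217923 UMIs.

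Named genes were the receptors in every gate, from each list of 24 genes at most the 2 largest log2 ratios per gate and comparison among genes with at least 100 counts, Fcer1g, Tyrobp, Syk, Card9 and Cebpb, and the 3 genes most like each receptor. Alternatives were median-ratio scaling, the mean over cells, no cell filter, at least 3000 UMIs, stricter gates, gates on thinned counts, another call rule, a fold of 1 and leaving out the deepest 5% of cells, and, chosen after seeing the data, looser gates and leaving out cells with tumor markers or the 3 richest cells of each receptor. Scripts were tested on simulated data. Python 3.11.15, numpy 2.4.6, scipy 1.17.1, pandas 2.3.3 and matplotlib 3.10.9 were used.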

Additional observations from a re-analysis of the deposited data

Results flagged for a closer look

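Several receptors lay on opposite sides of Veh in different cell types of the same comparison, with counting intervals that exclude 0. The difference between cell types was not tested, since each group has 1 library. In p38i, the log2 ratio of Clec4n was -0.22 in neutrophils and 0.15 in monocytes, although the neutrophil value was 0.16 among cells with at least 3000 UMIs. That of Mrc1 was 3.86 in neutrophils, where 3 cells held 90.0% of the UMIs, -0.40 in monocytes and -0.22 in macrophages. In p38KO, Clec4n was 0.51 in neutrophils, -0.33 in monocytes and -0.23 in macrophages, and Clec4d was 0.15 in neutrophils and -0.27 in monocytes. The Clec4d neutrophil value ranged from 0.06 to 0.16 over the alternatives, beside a median of 0.09 over all genes. In the monocyte gate the neutrophil markers summed to 6409 CPM in Veh and 3284 in p38KO, and their part in the Clec4d value was not tested.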

How the results depend on the processing

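No paired analysis was possible because each group had 1 library. The alternatives planned for Clec7a were not run, since it was not analysed here. Of 350 values of single receptors under the alternatives, 312 stayed within the counting interval of the reported value and 38 moved outside it. A total of 19 changed their side of the fold. The share of all genes past the fold is given in this report for the main setting only. The counts of receptors under the alternatives are therefore not set against all genes. In p38i neutrophils the 2 receptors past the fold became 1 under median-ratio scaling, the mean over cells, gates on thinned counts, a fold of 1, without the deepest 5% of cells and without the 3 richest cells. In p38KO neutrophils 2 became 1 under median-ratio scaling, the mean over cells, a fold of 1, without the deepest cells, without cells with tumor markers and without the richest cells. With gates on thinned counts and with looser gates the count stayed at 2, with Mrc1 in place of Clec4n. Clec5a was past the fold in p38KO under all of these settings. In monocytes 0 became 2 in p38i (Clec4a2 and Mrc1) and 1 in p38KO (Clec4a2) with gates on thinned counts, and 1 in p38KO (Clec4n) without the richest cells. In macrophages 0 became 1 in p38i (Clec4e) with no cell filter, and 1 in p38KO (Clec4d) under the mean over cells and under stricter gates. In Veh T cells the summed level of the receptors was 34.2 CPM and 14.2 with at least 2 Cd3e UMIs per cell. The causes were not tested. Depth limits the macrophage values of Clec4e and Clec4d (65 to 245 UMIs) and all DC values.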
